A study of Homo sapiens with 6 samples.

Results

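Box C/D small nucleolar ribonucleoproteins (snoRNPs) and the machinery that assembles them were described by 10 genes in U2OS cells, a human osteosarcoma line, in which E4F1 had been depleted with a short hairpin RNA (shRNA). The genes were chosen by name and role with their CPM per library in these 6 libraries in view, as 4 subunits of the R2TP complex (RUVBL1, RUVBL2, PIH1D1 and RPAP3), 3 assembly factors (ZNHIT6, ZNHIT3 and NUFIP1) and 3 core box C/D proteins (NOP56, NOP58 and FBL). All 10 were among the 15765 genes that passed the filter on low counts, of 58219 in the tables. Since their levels were known when they were selected, their differences between the groups are given as a description and support no further statement.

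The sh-E4F1 cells carried an shRNA against E4F1, and the sh-CT cells carried a scramble shRNA, with 3 libraries in each group. Both groups were U2OS cells in the same serum-containing medium, infected for 24 h and then kept under puromycin for 48 h, and RNA was taken at 72 h. The series describes 3 independent pools of cells, so the replicates are pools of a single line, and how many hairpins against E4F1 were used is not stated in the labels. Polyadenylated RNA was sequenced and the deposited values are read counts per gene, given here also as CPM, counts per 1e+06 reads in the tested genes with libraries scaled by TMM.

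R2TP is a co-chaperone of HSP90. Its ATPases RUVBL1 and RUVBL2 form a ring, RPAP3 is the scaffold that binds HSP90, and PIH1D1 is the adaptor that recruits many of its clients. Box C/D snoRNPs are among these clients: the complex, together with ZNHIT3, NUFIP1 and ZNHIT6, brings NOP58, NOP56, SNU13 and the methyltransferase FBL onto a box C/D snoRNA, which then guides ribose methylation of ribosomal RNA or, for a few members such as U3, ribosomal RNA cleavage. The snoRNA is named for its box C and box D letters, and most of these RNAs are cut out of introns of other genes, NOP56 and NOP58 among them.

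The guide RNAs themselves are shown for a pair of such introns, because they are the RNA part of the particles that the 10 gene products form or help to assemble. SNORD57 lies in NOP56 at chr20:2656939-2657010 and SNORD11 in NOP58 at chr2:202293051-202293134 (GRCh38, plus strand, GENCODE 29 transcripts). Capitals mark box C (searched as TGATGA) and the last box D (CTGA) on the RNA strand.
SNORD57: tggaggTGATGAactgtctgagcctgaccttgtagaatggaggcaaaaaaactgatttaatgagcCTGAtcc
SNORD11: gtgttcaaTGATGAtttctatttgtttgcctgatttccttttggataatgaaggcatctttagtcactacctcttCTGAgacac
Both motifs, in this order, stand in 76.3% of 278 annotated SNORD transcripts. Of the others inside NOP56 and NOP58, SNORD110 and SNORD11B held both as searched, and SNORD86, SNORD56 and SNORD70 did not. In these poly(A)-selected libraries the snoRNAs inside the members were at or near 0: SNORD57 had 0 reads in every library, where 3 reads would be 0.178 to 0.201 CPM (counting error only), and SNORD11 had 8, 3 and 5 reads in sh-E4F1 libraries and 1, 7 and 5 reads in sh-CT libraries. The 8 annotated snoRNAs inside NOP56 and NOP58 did not pass the filter, so the libraries show the protein genes and not their RNA partners.

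The libraries held 16169103, 16892139 and 16159934 reads in genes for sh-E4F1 and 14947085, 16284450 and 15625332 for sh-CT. E4F1, the targeted gene (chromosome 16, 2223566 to 2235742), had 51, 53 and 41 reads in sh-E4F1 libraries and 233, 286 and 297 reads in sh-CT libraries, which left 16.9% of the control level (log2 -2.57, SE 0.14; edgeR quasi-likelihood test, Benjamini-Hochberg adjusted p = 7.66e-10). The 6 markers of mesenchymal and osteoblast cells, 5 of them over 1 CPM, summed to 4207 to 4364 CPM in sh-E4F1 and 4723 to 4950 CPM in sh-CT libraries, while 5 blood markers summed to 3.03 to 4.39 CPM in sh-E4F1 and 2.27 to 6.56 CPM in sh-CT libraries, with CD3E at 0, and 4 endothelial markers to 1.71 to 2.08 CPM in sh-E4F1 and 1.74 to 2.54 CPM in sh-CT libraries. The 5 epithelial markers summed to 492 to 504 CPM in sh-E4F1 and 456 to 492 CPM in sh-CT libraries. Most of this sum was KRT18, with means of 477 CPM in sh-E4F1 and 445 CPM in sh-CT (edgeR adjusted p = 0.154). The others did not go 1 way: CDH1 (log2 -0.41, edgeR adjusted p = 0.044) and CLDN4 (log2 -0.49, edgeR adjusted p = 0.011) were lower in sh-E4F1. EPCAM was higher (log2 0.43, edgeR adjusted p = 0.023), and KRT19 was too low to be tested. The part of these marker differences in the results was not tested. The libraries of sh-CT did not sit together: on a score of 16 proliferation genes (mean log2 CPM, relative to the 6 libraries) sh-E4F1 libraries 1 to 3 lay at 0.15, 0.17 and 0.058, and sh-CT libraries 1 to 3 at -0.17, 0.052 and -0.26, so that sh-CT library 2 was level with sh-E4F1 library 3.

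ZNHIT6 differed most among the 10 genes and was lower in sh-E4F1. In sh-E4F1 libraries it had 386, 366 and 354 reads, against 1007, 1073 and 1035 reads in sh-CT libraries. This was 24.1, 21.8 and 21.6 CPM in sh-E4F1 and 67.4, 66.4 and 66.5 CPM in sh-CT. The groups lay far apart with little spread inside either: 22.5 ± 1.39 CPM in sh-E4F1 and 66.8 ± 0.538 CPM in sh-CT (SD, n = 3 each), so that 33.7% of the control level was left. The log2 fold change was -1.57 (SE 0.07), with a 95% interval of 30.5% to 37.2% of the control level. Of all 15765 genes tested it had rank 29 from the lowest log2 fold change. In bulk RNA, fewer cells that express a gene and less RNA per cell cannot be told apart. The product of ZNHIT6, the human counterpart of yeast Bcd1, is an HIT-type zinc finger protein that is needed for box C/D snoRNAs to accumulate.

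In the other 2 assembly factors the groups overlapped. ZNHIT3, another HIT-type zinc finger protein, whose yeast counterpart keeps that of NUFIP1 stable, had 72.9, 68.0 and 61.9 CPM in sh-E4F1 and 64.2, 69.8 and 67.9 CPM in sh-CT libraries. NUFIP1, the platform protein that contacts the snoRNP proteins, had 18.6, 17.7 and 16.9 CPM in sh-E4F1 and 18.8, 17.1 and 18.0 CPM in sh-CT libraries. The spread inside each group was larger than the difference of the means. The log2 fold change was 0.0054 (SE 0.07) for ZNHIT3, with a 95% interval of 91.0% to 111% of the control level, and -0.019 (SE 0.09) for NUFIP1, with an interval of 86.9% to 112%.

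**Figure D1:**
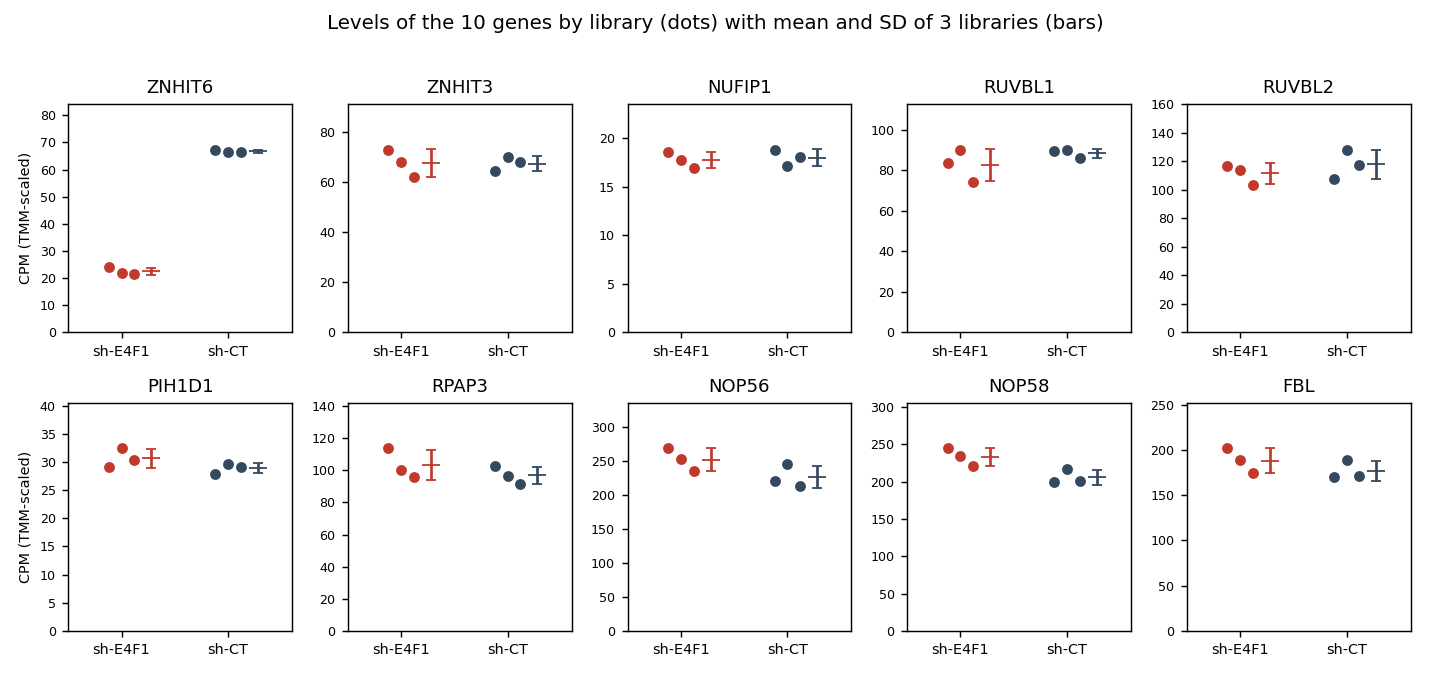
CPM (TMM-scaled) of each of the 10 genes, with 1 dot per library, sh-E4F1 on the left of each panel and sh-CT on the right, and bars for the mean and SD of 3 libraries. ZNHIT6 lies at 21.6 to 24.1 CPM in sh-E4F1 and 66.4 to 67.4 CPM in sh-CT; in the other panels the groups overlap, except for NOP58.

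None of the R2TP subunits was called, and their means lay near those of the control. RUVBL1 had 83.6, 90.2 and 74.2 CPM in sh-E4F1 and 89.3, 89.9 and 85.9 CPM in sh-CT libraries. RUVBL2 had 117, 114 and 103 CPM in sh-E4F1 and 108, 128 and 117 CPM in sh-CT libraries. Both ATPases were slightly lower on average in sh-E4F1, by less than the SD of their sh-E4F1 libraries. PIH1D1 had 29.2, 32.5 and 30.3 CPM in sh-E4F1 and 27.9, 29.7 and 29.1 CPM in sh-CT libraries. RPAP3 had 114, 101 and 96.0 CPM in sh-E4F1 and 102, 96.7 and 91.6 CPM in sh-CT libraries. The groups overlapped for all 4 genes. Their log2 fold changes were -0.096 for RUVBL1 (SE 0.07), -0.081 for RUVBL2 (SE 0.07), 0.085 for PIH1D1 (SE 0.07) and 0.094 for RPAP3 (SE 0.07). Their 95% intervals together reached from 84.9% of the control level, for RUVBL1, to 118%, for PIH1D1. Neither edgeR, DESeq2 nor limma-voom called any of the 4 (0 at an adjusted and 0 at an unadjusted p under 0.05 in each). With a score of 16 proliferation genes as a covariate, described with the core proteins, 0 of the 4 were called and 2 had an unadjusted p under 0.05. In that fit the log2 fold change was -0.24 for RUVBL2 (SE 0.08), -0.20 for RUVBL1 (SE 0.09), 0.041 for PIH1D1 (SE 0.11) and 0.023 for RPAP3 (SE 0.09).

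The core protein genes had higher means in sh-E4F1, and 1 of the 3, NOP58, was called. NOP58, a scaffold protein of the particle, had 245, 234 and 221 CPM in sh-E4F1 and 199, 217 and 201 CPM in sh-CT libraries. Every sh-E4F1 library lay above every sh-CT library, with the nearest values at 221 CPM in sh-E4F1 library 3 and 217 CPM in sh-CT library 2. The mean was 113% of the control level (log2 0.18, SE 0.06, 95% interval 105% to 123%). NOP56, its paralogue and partner, had 269, 253 and 235 CPM in sh-E4F1 and 220, 246 and 214 CPM in sh-CT libraries, a log2 fold change of 0.15 (SE 0.06). The 95% interval of NOP56, 102% to 122%, lay above the control level, but the gene was not called (edgeR adjusted p = 0.0747). FBL, the methyltransferase of the particle, had 202, 189 and 174 CPM in sh-E4F1 and 170, 189 and 171 CPM in sh-CT libraries, a log2 fold change of 0.090 (SE 0.06). For NOP56 and FBL the groups overlapped, through sh-CT library 2 on the high side and sh-E4F1 library 3 on the low side.

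Counted by the test over all genes (edgeR quasi-likelihood, Benjamini-Hochberg adjusted p under 0.05), 1 member fell, ZNHIT6, and 1 rose, NOP58, and 8 were not called. Of all genes tested 28.9% were called, 14.4% lower and 14.4% higher in sh-E4F1, and nothing is read from the members' count beside this. The members' median log2 fold change was 0.045, against -0.0096 over all genes tested. All sh-E4F1 libraries lay outside the range of the sh-CT libraries for 2 members, ZNHIT6 and NOP58, and for 41.8% of all genes.

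**Figure D2:**
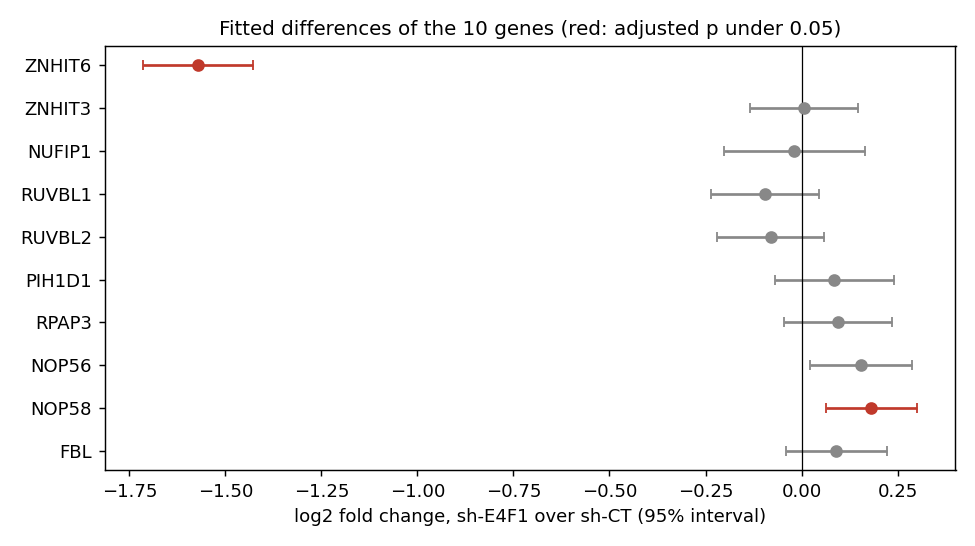
Log2 fold change of sh-E4F1 over sh-CT for the 10 genes with 95% intervals from the edgeR fit; red marks adjusted p under 0.05. ZNHIT6 stands at -1.57, while the other 9 lie between -0.096 and 0.18.

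The levels of the core protein genes are set beside the proliferation score of the libraries here. The 3 core genes together had 716, 675 and 631 CPM in sh-E4F1 and 590, 652 and 586 CPM in sh-CT libraries. The control library with the highest sum, library 2, was also the control library with the highest proliferation score. In sh-E4F1 this was not so: library 1 had the highest sum (716 CPM, score 0.15) and library 2 the highest score (0.17, 675 CPM). Of the 16 proliferation genes 10 were called higher in sh-E4F1, with a list median of 0.27. With the score as a covariate the log2 fold change was 0.061 for NOP58 (SE 0.08), -0.028 for NOP56 (SE 0.08) and -0.066 for FBL (SE 0.08), and the call of NOP58 was lost. ZNHIT6 had -1.58 in the same fit. NOP58 also lost its call when sh-E4F1 library 1 or 2 or sh-CT library 1 or 3 was left out, with log2 fold changes of 0.15, 0.18, 0.17 and 0.16. NOP56 was called with no filter on low counts, at 0.17 (SE 0.06), with the replicate number as a block, at 0.15 (SE 0.06), without sh-E4F1 library 3, at 0.21 (SE 0.06), and without sh-CT library 2, at 0.23 (SE 0.06). Without sh-CT library 2 NOP58 had 0.23 (SE 0.06) and FBL 0.15 (SE 0.06). MYC, a transcription factor known to drive ribosome biogenesis genes, had 142, 135 and 148 CPM in sh-E4F1 and 182, 173 and 206 CPM in sh-CT libraries, and fell (log2 -0.40, SE 0.06, edgeR adjusted p = 0.000199). The score mostly followed the groups, so the covariate fit on 6 libraries cannot tell proliferation and E4F1 depletion apart. The part of MYC in these differences was not tested.

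**Figure D3:**
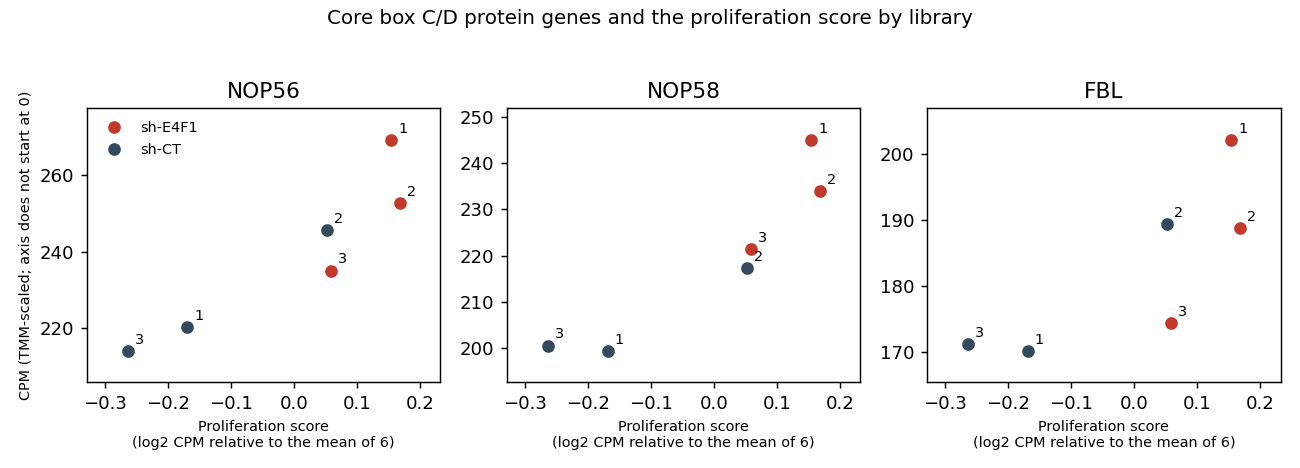
CPM of NOP56, NOP58 and FBL (vertical axes, which do not start at 0) against the proliferation score of each library (horizontal axes, log2 CPM relative to the mean of 6), with replicate numbers beside the points. The sh-CT library 2 lies close to sh-E4F1 library 3 on the horizontal axis (0.058 in sh-E4F1 library 3 and 0.052 in sh-CT library 2), with NOP56 at 235 CPM in sh-E4F1 library 3 and 246 CPM in sh-CT library 2.

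Per exon length the core proteins led the set and ZNHIT6 changed places. In reads per kilobase of annotated exon per 1e+06 reads (RPKM), FBL stood first with 86.7 ± 6.40 RPKM in sh-E4F1 and 81.4 ± 4.98 RPKM in sh-CT (SD, n = 3 each). NOP58 followed with 70.8 ± 3.58 RPKM in sh-E4F1 and 62.4 ± 3.05 RPKM in sh-CT. NOP56 (46.7 ± 3.16 RPKM in sh-E4F1 and 42.0 ± 3.09 RPKM in sh-CT), RUVBL2 (30.4 and 32.1 RPKM), RPAP3 (19.2 and 18.0 RPKM) and RUVBL1 (12.1 and 12.9 RPKM, sh-E4F1 before sh-CT in each pair) kept places 3 to 6 in both groups. Below them ZNHIT6 was in place 10 in sh-E4F1, at 3.63 ± 0.224 RPKM, and in place 7 in sh-CT, at 10.8 ± 0.0869 RPKM. ZNHIT3 (10.1 ± 0.824 RPKM in sh-E4F1 and 10.1 ± 0.427 RPKM in sh-CT), PIH1D1 (9.21 ± 0.500 and 8.68 ± 0.275 RPKM) and NUFIP1 (5.08 ± 0.242 and 5.15 ± 0.238 RPKM) each stood 1 place higher in sh-E4F1 than in sh-CT. In sh-E4F1 the libraries of neighbours in this order overlapped between RUVBL1 and ZNHIT3 and between ZNHIT3 and PIH1D1. In sh-CT no neighbours overlapped, although ZNHIT6 and ZNHIT3 were only 1.07-fold apart in their means. The lengths are those of all annotated exons together, so a gene with many annotated variants is set lower than 1 transcript would put it. They were 6860 bases for RUVBL1, 6687 for ZNHIT3, 6197 for ZNHIT6 and 5398 for NOP56. The place of ZNHIT6 beside RUVBL1 and ZNHIT3 therefore depends on this choice of length.

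**Figure D4:**
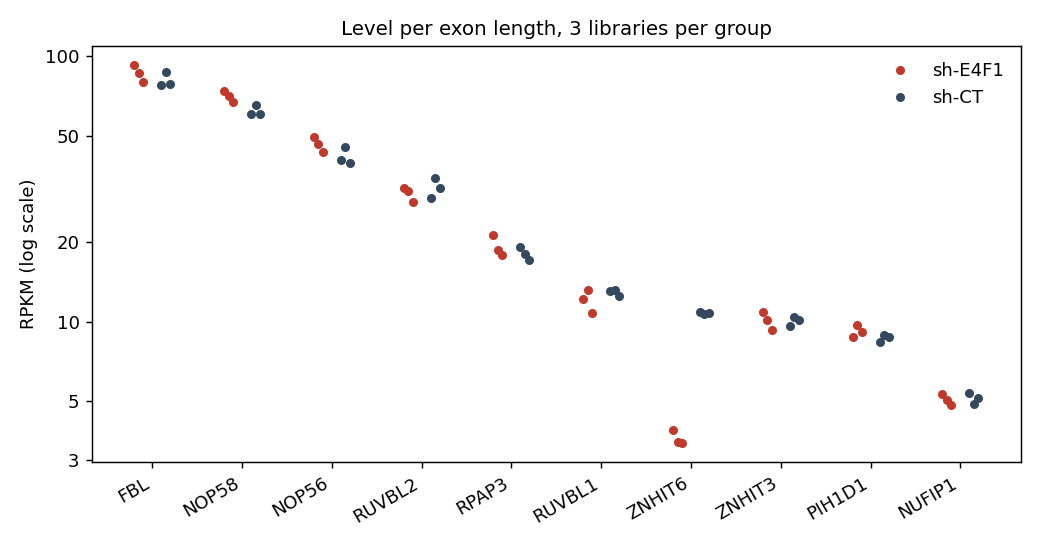
RPKM on a log scale for the 10 genes in order of their sh-CT mean, with 3 libraries of sh-E4F1 (red, left) and 3 of sh-CT (dark blue, right) for each gene. ZNHIT6 has the widest gap between its groups, with means of 3.63 RPKM in sh-E4F1 and 10.8 RPKM in sh-CT.

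Ratios within a library set the genes against each other without the scaling. The ratio of ZNHIT6 to ZNHIT3 per length was 0.356, 0.346 and 0.376 in sh-E4F1 and 1.13, 1.03 and 1.06 in sh-CT libraries. The ratio of ZNHIT6 to NOP58 was 0.0513 ± 0.00152 in sh-E4F1 and 0.173 ± 0.00919 in sh-CT (SD, n = 3 each). The ratios of RUVBL1 to RUVBL2, NOP56 to NOP58 and PIH1D1 to RPAP3 overlapped between the groups. RUVBL1 to RUVBL2 was 0.397 ± 0.0233 in sh-E4F1 and 0.404 ± 0.0358 in sh-CT. NOP56 to NOP58 was 0.660 ± 0.0113 in sh-E4F1 and 0.673 ± 0.0191 in sh-CT, and PIH1D1 to RPAP3 was 0.482 ± 0.0590 in sh-E4F1 and 0.483 ± 0.0384 in sh-CT. The ratio of FBL to NOP58 was 1.25, 1.22 and 1.20 in sh-E4F1 and 1.30, 1.32 and 1.30 in sh-CT libraries, so it was lower in every sh-E4F1 library. FBL to NOP56 was also lower in every sh-E4F1 library, at 1.85 ± 0.0115 in sh-E4F1 and 1.94 ± 0.0395 in sh-CT. The ratios were not tested, and the levels of 41.8% of all genes tested did not overlap between the groups.

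The ZNHIT6 profile over the 6 libraries was nearest, among genes that are not members, to those of ZEB1-AS1, ITFG1, DLAT and CRLS1, with root mean square distances of 0.05, 0.057, 0.091 and 0.10 on centred log2 CPM. ZEB1-AS1, an antisense transcript, averaged 3.90 ± 0.323 CPM in sh-E4F1 and 11.8 ± 0.502 CPM in sh-CT. DLAT, the acetyltransferase of the pyruvate dehydrogenase complex, averaged 38.0 ± 3.76 CPM in sh-E4F1 and 123 ± 6.76 CPM in sh-CT (SD, n = 3 each). These profiles rest on 6 libraries in 2 groups, so a like profile says mainly that the fold change was alike.

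The promoters were read for the letters that E4F1 is known for. E4F1 was found as a factor that binds the adenovirus E4 promoter at an element with the core TGACGT. RefSeq promoters (GRCh38.p14, 250 bases before to 50 after the start) were at hand for 8 members, all but PIH1D1 and NOP58. ZNHIT6 and NUFIP1 are shown, the member that fell and the member with the letters. The ZNHIT6 window is chr1:85708384-85708683, minus strand, with 61.0% G and C. The NUFIP1 window is chr13:44989422-44989721, minus strand, with 59.3% G and C. Capitals mark TGACGT on either strand.
ZNHIT6: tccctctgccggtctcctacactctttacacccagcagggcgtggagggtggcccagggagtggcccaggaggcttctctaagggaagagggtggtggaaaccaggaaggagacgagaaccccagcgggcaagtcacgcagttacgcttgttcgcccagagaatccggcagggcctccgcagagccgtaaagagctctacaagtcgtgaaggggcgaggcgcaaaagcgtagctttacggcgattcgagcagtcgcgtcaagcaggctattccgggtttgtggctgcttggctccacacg
NUFIP1: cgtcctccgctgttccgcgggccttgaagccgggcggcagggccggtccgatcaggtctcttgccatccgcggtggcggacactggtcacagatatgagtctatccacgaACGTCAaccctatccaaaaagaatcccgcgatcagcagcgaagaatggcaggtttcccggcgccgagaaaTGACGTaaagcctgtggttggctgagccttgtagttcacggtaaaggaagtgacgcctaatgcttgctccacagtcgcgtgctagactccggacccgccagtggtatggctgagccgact
NUFIP1 held TGACGT at 2 places, starting 140 and 70 bases before the start site, and the second of these was part of TGACGTAA. In the ZNHIT6 window, as in those of RUVBL1, RUVBL2, RPAP3, ZNHIT3, NOP56 and FBL, these letters did not occur. Among all 35116 promoters of this length 7.98% held TGACGT and 0.416% held TGACGTAA on either strand. TGACGTCA and TGACGTNAC, which overlap the core, stood in 1.85% and 1.56% of promoters and in none of the 8 windows. These matches describe letters only.

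The 10 genes lie on 8 chromosomes (GENCODE 29, GRCh38). ZNHIT6 (ENSG00000117174.10) is on chromosome 1, 85649423 to 85708433, ZNHIT3 on chromosome 17, 36486629 to 36499310, and NUFIP1 on chromosome 13, 44939249 to 44989483. NOP56 is on chromosome 20, 2652145 to 2658393, NOP58 on chromosome 2, 202265716 to 202303666, and FBL on chromosome 19, 39834458 to 39846414. RUVBL1 is on chromosome 3, 128064778 to 128153914, RPAP3 on chromosome 12, 47661249 to 47706061, and both RUVBL2, 48993448 to 49015995, and PIH1D1, 49446298 to 49453497, on chromosome 19. Counts are over all exons of a gene. For ZNHIT6, on the minus strand, no annotated gene starts on the other strand within 1000 bases of its start. Within that distance 5 members have such a neighbour, and none of these neighbours was called: GPALPP1 beside NUFIP1 at 46 bases (log2 -0.036, SE 0.10), RPAP3-DT beside RPAP3 at 24 bases (log2 -0.39, SE 0.31), GYS1 beside RUVBL2 at 138 bases (log2 -0.062, SE 0.07), ALDH16A1 beside PIH1D1 at 328 bases (log2 -0.12, SE 0.11) and EEFSEC beside the outermost annotated start of RUVBL1 at 460 bases (log2 -0.28, SE 0.14). The RefSeq promoter window of RUVBL1, chr3:128123763-128124062, does not reach that outermost start. That of NOP56, chr20:2652382-2652681, likewise does not reach the outermost annotated start of NOP56, at 2652145. Reads on the strand opposite to a member made up 25.0% to 30.4% of the reads over both strands at RUVBL1, 18.5% to 24.4% at ZNHIT3 and at most 4.19% at the other 8. SEC61A1, which overlaps RUVBL1 on the other strand, fell (log2 -0.21, SE 0.05), with means of 320 CPM in sh-E4F1 and 369 CPM in sh-CT. Its part in the opposite-strand reads was not tested. Annotated copies named after a member, NOP56P1 to NOP56P3, NUFIP1P1 and RUVBL2P1, had at most 2 reads in a library. Copies were searched for by name only, and reads shared between a gene and a copy were not examined.

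Genes that work with R2TP and with box C/D particles were counted in lists that, too, were drawn up with results of these data known. The share called among all genes tested, 28.9% (14.4% in each direction), is the background for each count, and nothing particular to a list is read from one near it. Of 16 tested cofactors and adaptors of R2TP 2 rose and 2 fell, close to the 28.9% of all genes called, with a median log2 fold change of -0.056. SPAG1, a dynein assembly factor related to RPAP3, averaged 52.0 ± 0.752 CPM in sh-E4F1 and 39.7 ± 4.34 CPM in sh-CT (log2 0.39, SE 0.07, edgeR adjusted p = 0.00092). ZNHIT2, another HIT-type zinc finger protein, which links R2TP to the U5 spliceosome particle, averaged 3.41 ± 0.722 CPM in sh-E4F1 and 5.29 ± 0.0949 CPM in sh-CT (log2 -0.63, SE 0.17, edgeR adjusted p = 0.0093). AAR2, a factor of the same particle, fell (log2 -0.19, SE 0.07), and URI1, a prefoldin-like partner of R2TP, rose (log2 0.16, SE 0.06). Among the other HIT-type and NUFIP genes 4 were tested: ZNHIT2 fell, ZNHIT1 of the SRCAP complex fell (log2 -0.24, SE 0.08), NUFIP2 rose (log2 0.16, SE 0.05) and DDX59 was not called. Of 16 genes in the list of R2TP clients, which also holds TELO2, TTI1 and TTI2 of the TTT complex, 1 was called. This was TTI2, which belongs to the TTT complex, the partner of R2TP in folding PIKK kinases, with 6.33 ± 0.766 CPM in sh-E4F1 and 15.8 ± 1.37 CPM in sh-CT (log2 -1.32, SE 0.12, edgeR adjusted p = 5.25e-07). The kinase genes PRKDC (log2 0.15, SE 0.06) and TRRAP (log2 0.089, SE 0.05) came next and were not called. The list median was 0.0026.

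Among other genes of box C/D particles 3 of 6 tested were called, in a list too short to set against the 28.9% of all genes. RRP9, the protein specific to the U3 particle, averaged 35.8 ± 0.271 CPM in sh-E4F1 and 41.8 ± 3.32 CPM in sh-CT (log2 -0.22, SE 0.07, edgeR adjusted p = 0.0258). TGS1, the enzyme that modifies the U3 cap, rose (log2 0.18, SE 0.06, edgeR adjusted p = 0.0265), as did COIL, the coilin gene of Cajal bodies (log2 0.16, SE 0.06, edgeR adjusted p = 0.0458). SNU13, the core protein that binds the RNA first, averaged 96.7 ± 5.33 CPM in sh-E4F1 and 100 ± 2.99 CPM in sh-CT and was not called. FBLL1, a paralogue of FBL, was not tested. Of the 6 box H/ACA factors, which serve the other snoRNA class, NOP10 fell (log2 -0.20, SE 0.06, edgeR adjusted p = 0.0225). NHP2 was not called (log2 -0.13, SE 0.06, edgeR adjusted p = 0.081). It was lower in every sh-E4F1 library than in every sh-CT library, as were 21.1% of all genes tested. DKC1, the pseudouridine synthase, had log2 0.038 (SE 0.06).

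The small subunit processome, the particle that U3 and these core proteins join on the ribosomal precursor, held 3 falls and 1 rise among 34 tested genes, below the 28.9% of all genes called, with a median of -0.031. UTP25 averaged 52.0 ± 1.24 CPM in sh-E4F1 and 77.4 ± 1.13 CPM in sh-CT (log2 -0.57, SE 0.06, edgeR adjusted p = 1.84e-06). NOL6 averaged 90.0 ± 0.696 CPM in sh-E4F1 and 123 ± 9.97 CPM in sh-CT (log2 -0.45, SE 0.06, edgeR adjusted p = 4.34e-05). FCF1 fell (log2 -0.18, SE 0.06) and KRR1 rose (log2 0.21, SE 0.07). In this list 9 genes were lower and 5 higher in every sh-E4F1 library than in every sh-CT library, against 21.1% and 20.7% of all genes tested. NOP56 and NOP58 hold at least 2 SNORD genes each themselves. Without these members, 2 of 33 tested host genes of this kind rose and 2 fell, also below the 28.9% of all genes, with a median of -0.057: SNHG16 (log2 -0.23, SE 0.06) and RPL13A (log2 -0.20, SE 0.05) fell, and CHD8 (log2 0.21, SE 0.05) and SNHG14 (log2 0.21, SE 0.07) rose. The chromatin complexes that also contain RUVBL1 and RUVBL2 (INO80, SRCAP and TIP60) held 4 falls and 3 rises among 27 tested genes, close to that share, with a median of 0.059. UCHL5, a deubiquitinase of INO80, rose (log2 0.44, SE 0.09, edgeR adjusted p = 0.00159), as did EPC2 (log2 0.19, SE 0.06) and MEAF6 (log2 0.18, SE 0.06). INO80C (log2 -0.43, SE 0.13, edgeR adjusted p = 0.0231), TFPT (log2 -0.33, SE 0.10), ACTR8 (log2 -0.20, SE 0.06) and ZNHIT1 fell.

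With the proliferation score as a covariate edgeR called 6.96% of all genes, against 28.9% without it, so few calls are left in any short list. It called 0 of the other box C/D genes (1 at an unadjusted p under 0.05), 0 box H/ACA factors (0 unadjusted), 0 other HIT-type and NUFIP genes (0 unadjusted) and 0 genes of the chromatin complexes (4 unadjusted). In the same fit 1 cofactor or adaptor of R2TP and 1 gene of the client list were called. Every list lost or gained calls by more than 1.5 times when some single library was left out, and each of the 6 libraries did this to at least 1 list.

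**Figure D5:**
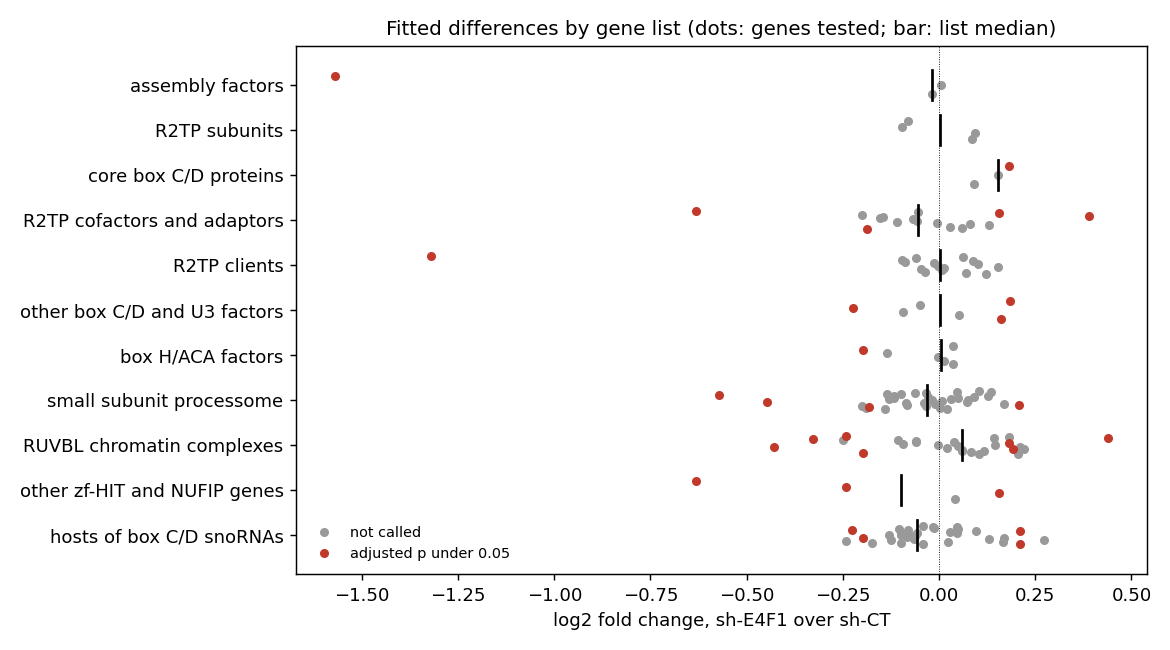
Log2 fold change of sh-E4F1 over sh-CT for each tested gene of the member groups (top 3 rows) and of the other lists, with red dots for adjusted p under 0.05 and a bar for the list median. The medians lie between -0.099 and 0.15, while ZNHIT6 stands at -1.57 and TTI2 at -1.32.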

How the data were processed

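Each library came as a table of raw read counts, made with STAR 2.5.1b on GRCh38 after bcl2fastq 2.20 as far as the submitters' processing notes list tools and builds. The deposited counts have 3 strand columns, and the reverse-strand one was used (the forward-strand one held 885046 to 977742 reads). Which annotation release was used is not given in the sources at hand. Lines naming no gene held 27.1% to 31.7% of reads and were left out. Names, exon lengths and coordinates came from GENCODE 29, which matched 57836 of 58219 identifiers without version.

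edgeR 4.0.16 in R 4.3.3 tested the counts: filterByExpr, TMM, a two-sided quasi-likelihood test of the group alone, and Benjamini-Hochberg adjustment over 15765 genes. Log2 fold changes are sh-E4F1 over sh-CT. RPKM was computed from CPM and exon length. An exact permutation test of 3 against 3 libraries cannot go below p = 0.1. No 2 libraries agreed within sampling noise (chi-square per degree of freedom 2.43 or more). Members and lists were chosen with earlier results of these data known. Named are the members, neighbours and snoRNAs, the 4 profiles nearest to ZNHIT6 and, per list, up to 3 genes of smallest adjusted p. URI1, DDX59, SNU13, FBLL1, KRR1, SNHG14, EPC2, MEAF6, TFPT and ACTR8 were named after their values were seen. So were SEC61A1 and the single epithelial markers. Alternatives were DESeq2 1.42.0, limma-voom (limma 3.58.1), other scalings, filters and strand columns, a replicate block, a proliferation covariate and leaving out each library. The steps were tested on simulated data.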

Additional observations from a re-analysis of the deposited data

Results flagged for a closer look

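Reads on the strand opposite to ZNHIT3, which no comparison above uses, made up 19.1%, 21.8% and 24.4% of its reads over both strands in sh-E4F1 libraries and 18.5%, 19.0% and 18.9% in sh-CT libraries. They were singled out because every sh-E4F1 library lay above every sh-CT library. The gap was small, with 19.10% in sh-E4F1 library 1 and 18.95% in sh-CT library 2 as the nearest values. Levels lay above in this way for 20.7% of all genes tested, so nothing is read from the order alone. MYO19 overlaps ZNHIT3 on that strand and averaged 148 ± 3.63 CPM in sh-E4F1 and 135 ± 7.94 CPM in sh-CT (SD, n = 3 each; log2 0.14, SE 0.06, edgeR adjusted p = 0.0723). Its part in the difference was not tested.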

How the results depend on the processing

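ZNHIT6 kept its direction and its call in all 15 alternatives, with log2 fold changes from -1.61 to -1.54. So did E4F1, from -2.63 to -2.45. With the proliferation score as a covariate 1097 of all genes were called, 1 member, 1 of the R2TP cofactors and adaptors, 2 of the small subunit processome and 2 of the host genes. In that edgeR fit no gene was called in the box H/ACA list (0 at an unadjusted p under 0.05), the other box C/D list (0 called, 1 unadjusted), the other HIT-type and NUFIP genes (0 called, 0 unadjusted) or the chromatin complexes (0 called, 4 unadjusted). DESeq2 called 3 genes of the chromatin complexes. Calls in the R2TP client list came to 2 with limma-voom, with no low-count filter and with the replicate block, and without a filter the other box C/D list came to 1. The same-numbered libraries did not deviate together (correlations 0.0070, 0.047 and 0.048), so the numbers were not taken as pairs; with the replicate block 4865 genes and 3 members were called, NOP56 being the added one, as with no low-count filter.

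Leaving out 1 library at a time gave 3031 to 5370 genes called, 1 to 3 members, 1 to 5 cofactors and adaptors, 1 to 2 genes of the client list, 0 to 2 other box C/D genes, 0 to 1 box H/ACA genes, 0 to 3 HIT-type and NUFIP genes, 1 to 11 chromatin genes, 2 to 6 processome genes and 2 to 7 host genes. The lowest total, 3031, was without sh-E4F1 library 2, and the 11 chromatin genes were without sh-CT library 2. Where edgeR called 0, the unadjusted counts were 3 for the other box C/D and the HIT-type lists and 1 to 2 for box H/ACA. Where an arm was left with 2 libraries, the fit pooled the spread over both groups.

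Signs turned for 4 members. ZNHIT3 had -0.0054 with strand ignored, -0.089 with the covariate and -0.043 to 0.071 over the libraries left out. NUFIP1 had 0.018 with the covariate and -0.045 to 0.027 over the libraries left out. With the covariate NOP56 had -0.028, against 0.15 without it, and FBL -0.066, against 0.090. The cause was not tested. RUVBL1, RUVBL2, PIH1D1 and RPAP3 kept their sign and stayed without a call in all 15, but their values moved: over the libraries left out RUVBL1 ran from -0.16 to -0.018, RUVBL2 from -0.13 to -0.0061, PIH1D1 from 0.046 to 0.13 and RPAP3 from 0.029 to 0.15. Scaling moved the median of all genes by 0.01 or less on the log2 scale. For the 8 members without a call, the 95% intervals reach 0.15 to 0.29 on the log2 scale in at least 1 direction. That of NOP56, 0.022 to 0.29, lay wholly on the positive side.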
